A study of Homo sapiens with 36 samples.

Results

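EGR1, EGR2, EGR3, NR4A1, NR4A2 and NR4A3 are the zinc finger and orphan nuclear receptor genes of the immediate early response. They were taken from the deposited expression table by their Entrez gene numbers, and 6 of 6 were found among 21599 genes. The 36 libraries are total RNA of THP-1 cells, an established human monocytic leukaemia line, that had been turned into macrophage-like cells with 100 nM PMA for 72 h. Wild-type (WT) cells and cells with a knockout (KO) of IRG1, the gene of the enzyme that makes itaconate (official symbol ACOD1), then received either vehicle or 200 ng/mL LPS together with 200 ng/mL IFN-γ for 6, 12 or 24 h. That gives 12 groups with 3 libraries each. All groups carry the PMA treatment, so the vehicle cells are PMA-differentiated and not resting monocytes. Whether the KO line is 1 clone, and whether replicates are separate cultures, is not given in the sources used here. Each p-value therefore reflects no more than the spread of libraries within groups. In the main fit that spread is estimated for each gene over all 12 groups together. Outlying libraries in 1 group thus widen the intervals of that gene in every comparison. In bulk RNA, fewer cells that express a gene and less RNA per cell cannot be told apart.

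EGR proteins are zinc finger transcription factors whose genes are switched on within minutes by growth factors, phorbol esters and other stimuli, through ERK signalling to serum response factor (SRF) and its ternary complex partners at CArG boxes. NR4A proteins are nuclear receptors without a known physiological ligand in the usual sense, so their activity follows largely from how much protein is made, and their genes respond to cAMP, calcium and inflammatory signals through CREB and NF-κB. In macrophages EGR1 and EGR2 take part in differentiation and in shaping activation, and NR4A1, NR4A2 and NR4A3 are known as inflammation-induced genes that limit inflammatory output.

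The RefSeq promoter table (build GRCh38.p14) held windows for 4 of the 6 genes, at 7 start sites in all. Of these, 3 are shown because they differ in the letters that CArG-binding SRF and CREB recognise. Capitals mark each CArG box and each TGACG, the core of the cAMP response element, on either strand, in the 250 bases before the start site. The EGR1 window is chr5:138465229-138465478 on the + strand, the EGR2 window is chr10:62816367-62816616 on the - strand, and the NR4A3 stretch is chr9:99821635-99821854 on the + strand, ending before the first annotated exon.
EGR1: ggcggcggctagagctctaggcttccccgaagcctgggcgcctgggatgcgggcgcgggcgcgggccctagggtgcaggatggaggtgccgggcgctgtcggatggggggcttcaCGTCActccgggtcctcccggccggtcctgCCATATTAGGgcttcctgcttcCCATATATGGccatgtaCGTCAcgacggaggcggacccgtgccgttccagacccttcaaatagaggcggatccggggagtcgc
EGR2: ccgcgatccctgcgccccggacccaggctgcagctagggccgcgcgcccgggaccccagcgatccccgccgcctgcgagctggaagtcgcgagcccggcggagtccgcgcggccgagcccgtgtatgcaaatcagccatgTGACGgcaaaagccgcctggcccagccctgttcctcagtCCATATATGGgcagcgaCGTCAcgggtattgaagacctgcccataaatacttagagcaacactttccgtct
NR4A3: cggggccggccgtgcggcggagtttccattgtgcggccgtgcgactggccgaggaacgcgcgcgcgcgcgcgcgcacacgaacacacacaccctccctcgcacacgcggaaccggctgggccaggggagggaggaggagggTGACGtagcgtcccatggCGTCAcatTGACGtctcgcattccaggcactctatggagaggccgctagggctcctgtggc

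The EGR1 window held 2 CArG boxes and 2 TGACG cores. The EGR2 window shown held 1 CArG box and 2 TGACG cores, while the windows at the other EGR2 start sites held neither motif. The NR4A3 window held 4 TGACG cores in 250 bases, of which 3 lie in the 220 bases shown, and no CArG box. Among 35116 promoter windows of this length, 1.16% held a CArG box, 21.2% held a TGACG core and 9.96% held a kappa B site, the NF-κB motif, which was found in 1 of the 7 windows, at another EGR2 start. No match overlapped another. The 2 NR4A1 start sites in the table held none of the 3 motifs. A match describes letters and is not evidence of binding.

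Values are deposited log2 levels, and a change is a difference between mean log2 levels. A gene was called when limma's moderated test gave an adjusted p (Benjamini-Hochberg over 21232 genes) below 0.05. ACOD1 itself lay between 0.00 and 0.86 in vehicle libraries and rose in both genotypes with stimulation. Its log2 level was lower in stimulated KO than in stimulated WT libraries by a fitted difference of -3.31 at 6 h, -2.69 at 12 h and -1.48 at 24 h (limma adjusted p = 3.74e-05, 0.00087 and 0.0597). ACOD1 RNA was therefore reduced but still present under the KO label, and the libraries of the 2 genotypes overlapped at 24 h. All 10 myeloid markers were at or above log2(10) in every group, and of 16 markers of other cell types 10 were found and 2 to 5 reached that level. Of those 10, 8 had a lowest group mean between 0.001 and 2.07, while PECAM1, which monocytes also express, and COL1A1, a collagen gene of fibroblasts, were above log2(10) in every group (lowest means 6.13 and 3.37). COL1A1 rose with stimulation in WT cells by 2.80, 2.01 and 1.82 at 6, 12 and 24 h (limma, highest adjusted p = 0.00116). Of these 10 markers, 1, 2 and 2 were called higher and 3, 2 and 0 lower with stimulation in WT cells. Of all genes, 36.0%, 38.5% and 46.4% were called in either direction. Each library was also compared with the mean of the other 2 of its group, over genes with a mean level of at least log2(10). The root mean square of these differences ran from 0.454 to 1.36, with a median of 0.633. KO stimulated 6 h replicate 2 was the highest and WT stimulated 24 h replicate 3 next at 1.12. The sources used here give no read counts, so depth is unknown.

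All 6 genes passed the filter on low values, but unevenly. EGR1 reached log2(10), which is 3.32, in 34 of 36 libraries, EGR2 in 32, NR4A2 in 27, NR4A1 and NR4A3 in 18 each, and EGR3 in 6. NR4A1 and NR4A3 passed through their stimulated groups, so their calls with stimulation are partly a condition of being tested. EGR3 passed only through libraries numbered 2, so its excess in those libraries is likewise partly a condition of being tested.

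NR4A1 and NR4A3 rose with stimulation at all 3 times in both genotypes, NR4A2 in every comparison except WT cells at 6 h, and the EGR genes in fewer comparisons. Of the 6 genes, 2 were called higher in WT cells at 6 h, 3 at 12 h and 4 at 24 h, against 15.1%, 16.8% and 20.2% of all genes called higher. In KO cells 3 were called higher at 6 h, 4 at 12 h and 4 at 24 h, against 16.2%, 15.5% and 17.3% of all genes. None of the 6 was called lower, against 20.9%, 21.7% and 26.1% of all genes in WT cells and 22.5%, 19.5% and 21.6% in KO cells. Their median log2 change was 1.67, 1.94 and 2.82 in WT cells and 1.53, 2.38 and 3.63 in KO cells, while the median of all genes lay between -0.20 and -0.08. Of these 20 calls, 16 also held under every alternative that could be run, 14 or 15 for each.

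**Figure D1:**
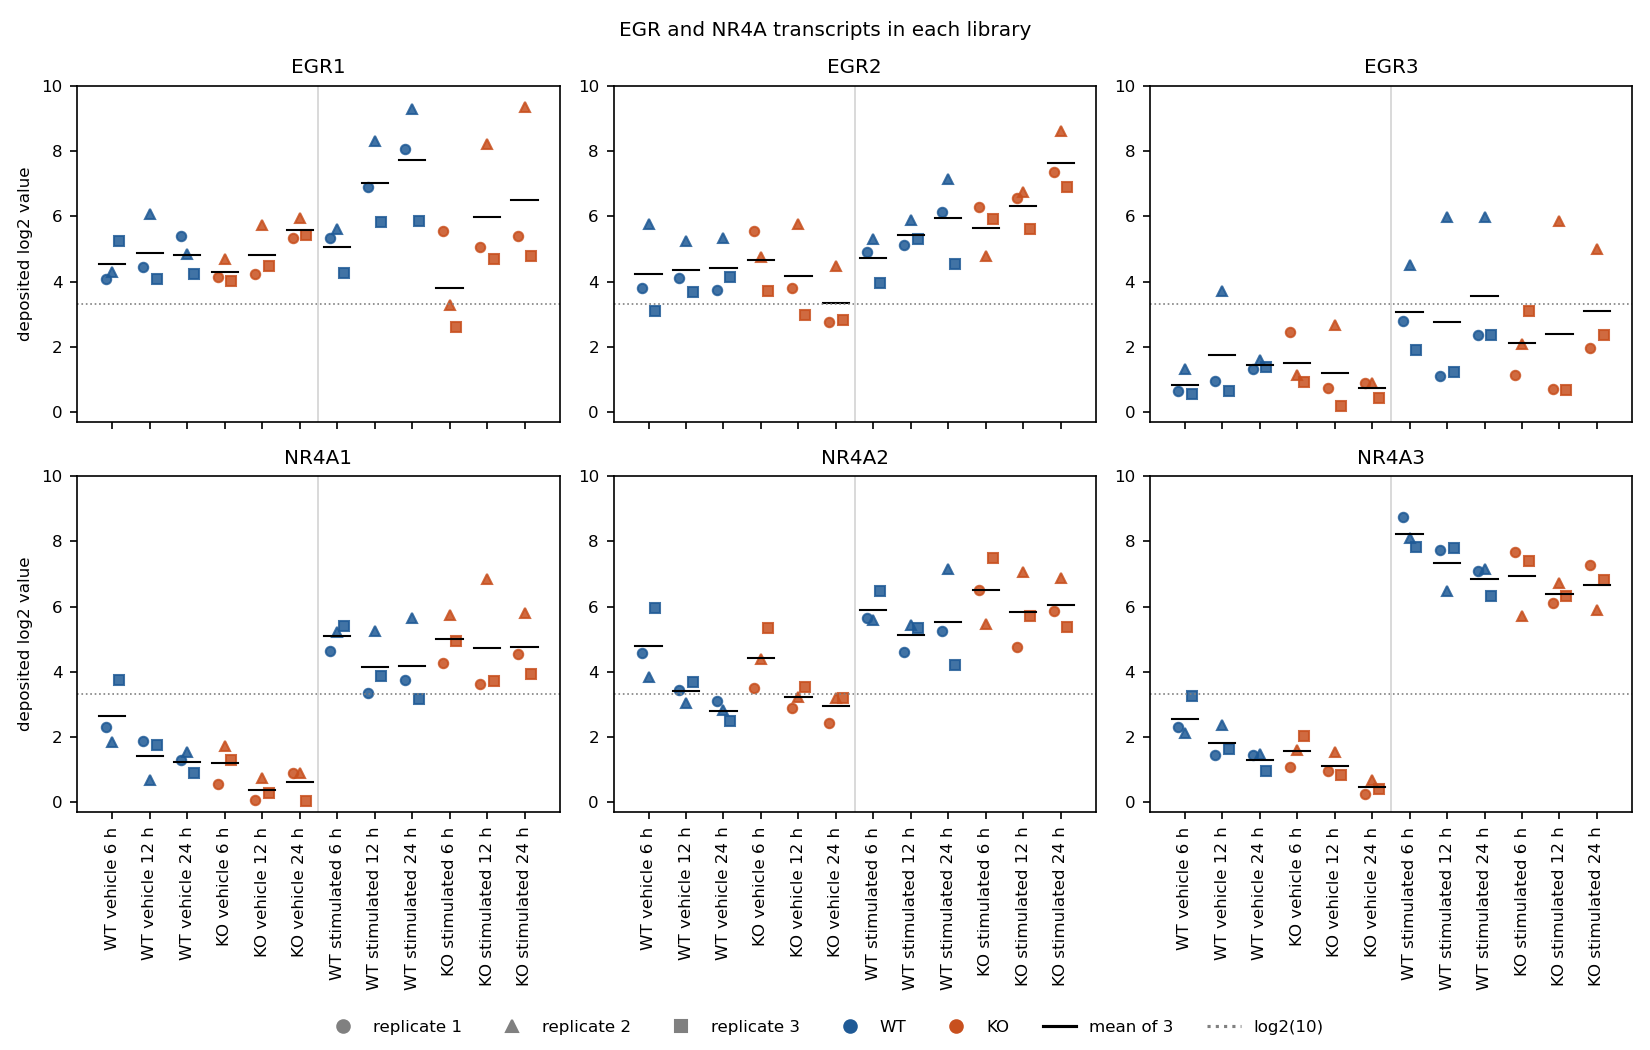
Deposited log2 level (y axis) of each gene in each of the 36 libraries, by group (x axis), with WT in blue, KO in orange, a marker shape for each replicate number and a black line for the mean of 3. NR4A3 separates completely between vehicle (0.26 to 3.25) and stimulated (5.72 to 8.74) libraries, while EGR1 and EGR3 have single libraries, mostly replicate 2, far above the others.

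NR4A3 (NOR1) showed the largest response of the 6 genes at each time in each genotype. Its vehicle levels in WT replicates 1, 2 and 3 were 2.31, 2.14 and 3.25 (6 h), 1.46, 2.36 and 1.65 (12 h) and 1.46, 1.47 and 0.95 (24 h). Stimulated WT libraries stood at 8.74, 8.09 and 7.83 (6 h), 7.73, 6.49 and 7.80 (12 h) and 7.08, 7.15 and 6.32 (24 h). Every stimulated library was above every vehicle library. KO vehicle levels were 1.09, 1.59 and 2.02 (6 h), 0.95, 1.53 and 0.84 (12 h) and 0.26, 0.69 and 0.42 (24 h). KO stimulated levels were 7.69, 5.72 and 7.41 (6 h), 6.11, 6.74 and 6.32 (12 h) and 7.29, 5.91 and 6.81 (24 h). The KO groups, too, were separated by treatment without overlap. The log2 change was 5.65 ± 0.46 (SE), 5.51 and 5.56 in WT cells at 6, 12 and 24 h, and 5.37, 5.28 and 6.21 in KO cells (limma, highest adjusted p = 2.8e-10). With a pseudocount of 5 the KO change at 24 h was 4.07.

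NR4A1 (NUR77), the founding member of the receptor group, rose in all 6 comparisons from vehicle levels that were mostly below log2(10). WT vehicle replicates 1, 2 and 3 were at 2.31, 1.84 and 3.75 (6 h), 1.87, 0.67 and 1.75 (12 h) and 1.30, 1.54 and 0.91 (24 h). WT stimulated replicates were at 4.63, 5.23 and 5.42 (6 h), 3.35, 5.26 and 3.86 (12 h) and 3.75, 5.64 and 3.17 (24 h). No stimulated library overlapped the vehicle libraries of its time, although replicate 2 was well above replicates 1 and 3 at 12 and 24 h. KO vehicle levels were 0.55, 1.72 and 1.31 (6 h), 0.07, 0.76 and 0.30 (12 h) and 0.90, 0.89 and 0.04 (24 h). KO stimulated levels were 4.28, 5.75 and 4.96 (6 h), 3.62, 6.84 and 3.71 (12 h) and 4.55, 5.81 and 3.95 (24 h). Again the treatments did not overlap in KO cells. NR4A1 changed by 2.46, 2.73 and 2.94 log2 units at 6, 12 and 24 h in WT cells, against 3.81, 4.35 and 4.16 in KO cells (SE 0.72, limma, adjusted p from 2.05e-05 to 0.00779). With a pseudocount of 5 the change was 1.58 and 1.71 in WT cells at 12 and 24 h, and 2.34, 2.40 and 2.32 in KO cells at 6, 12 and 24 h. Without the 12 libraries numbered 2, the WT change at 12 h was 1.80.

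NR4A2 (NURR1), known for its part in dopamine neurons and induced by inflammatory signals in myeloid cells, was already above log2(10) in vehicle libraries at 6 h. WT vehicle replicates stood at 4.59, 3.84 and 5.95 (6 h), 3.45, 3.06 and 3.70 (12 h) and 3.11, 2.82 and 2.48 (24 h). WT stimulated replicates stood at 5.65, 5.58 and 6.49 (6 h), 4.61, 5.45 and 5.36 (12 h) and 5.24, 7.14 and 4.20 (24 h). Only the 6 h WT groups overlapped, where 1 vehicle library was higher than 2 stimulated ones. In KO cells the vehicle libraries were at 3.51, 4.38 and 5.36, then 2.89, 3.24 and 3.55, then 2.42, 3.21 and 3.20 at 6, 12 and 24 h. The KO stimulated libraries were at 6.51, 5.48 and 7.50, then 4.77, 7.05 and 5.72, then 5.87, 6.89 and 5.38. All 3 KO comparisons were without overlap. The NR4A2 change was 1.11 (not called, limma adjusted p = 0.179), 1.74 (0.0315) and 2.73 (0.000914) in WT cells and 2.08 (0.0105), 2.62 (0.00185) and 3.11 (0.000289) in KO cells, with an SE of 0.64. The WT call at 12 h was lost without any one of WT vehicle replicate 1 (adjusted p = 0.0635), vehicle replicate 2 (0.0968), stimulated replicate 2 (0.0899) or stimulated replicate 3 (0.0857), as it was with a pseudocount of 5 (0.0525). The KO call at 6 h was lost without KO vehicle replicate 1 (0.0746) or stimulated replicate 3 (0.079), and in a fit of only the libraries compared (0.0615).

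EGR1, a growth- and stress-induced factor, was called higher in WT cells at 24 h alone. WT vehicle replicates 1, 2 and 3 had log2 levels of 4.08, 4.31 and 5.25 (6 h), 4.44, 6.09 and 4.08 (12 h) and 5.40, 4.84 and 4.23 (24 h). WT stimulated replicates had 5.34, 5.60 and 4.28 (6 h), 6.91, 8.32 and 5.83 (12 h) and 8.07, 9.28 and 5.87 (24 h). The groups overlapped at 6 and 12 h and separated at 24 h. In KO vehicle libraries EGR1 stood at 4.15, 4.70 and 4.01, then 4.23, 5.73 and 4.49, then 5.35, 5.96 and 5.43 at 6, 12 and 24 h. In KO stimulated libraries it stood at 5.54, 3.28 and 2.61, then 5.07, 8.22 and 4.69, then 5.39, 9.36 and 4.78. At 12 and 24 h only replicate 2 was high, and replicates 1 and 3 lay within or below the vehicle range of their time. The EGR1 change was 0.53, 2.15 and 2.92 ± 0.98 (SE) in WT cells (limma adjusted p = 0.72, 0.0844 and 0.0159) and -0.47, 1.18 and 0.93 in KO cells (0.738, 0.377 and 0.487). With the replicate number as a block, the WT change at 12 h was called (adjusted p = 0.0256). The WT call at 24 h was lost without stimulated replicate 2 (change 2.15, adjusted p = 0.104) or without vehicle replicate 3 (2.62, adjusted p = 0.0584).

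EGR2 (KROX20), linked to myelination and to alternative macrophage activation, was called in KO cells at 12 and 24 h. WT vehicle replicates 1, 2 and 3 were at 3.80, 5.76 and 3.11 (6 h), 4.10, 5.26 and 3.68 (12 h) and 3.76, 5.33 and 4.15 (24 h). WT stimulated replicates were at 4.90, 5.32 and 3.96, then 5.12, 5.89 and 5.31, then 6.15, 7.15 and 4.53. The WT groups overlapped at all 3 times, with vehicle replicate 2 the high library each time. KO vehicle libraries were at 5.54, 4.76 and 3.72, then 3.80, 5.76 and 2.97, then 2.75, 4.49 and 2.84. KO stimulated libraries were at 6.28, 4.78 and 5.91, then 6.57, 6.74 and 5.63, then 7.35, 8.63 and 6.91. Only the 24 h KO groups were free of overlap, and KO stimulated 24 h was the highest of the 12 groups. EGR2 changed by 0.50, 1.09 and 1.53 in WT cells (limma adjusted p = 0.64, 0.254 and 0.0935) and by 0.99, 2.13 and 4.27 ± 0.74 (SE) in KO cells (0.311, 0.0256 and 3.76e-05). With the replicate block the WT change at 24 h was called (adjusted p = 0.0167), as it was without WT stimulated replicate 3 (change 2.23, adjusted p = 0.0241). The KO call at 12 h was lost without KO vehicle replicate 1 (0.0849), vehicle replicate 3 (0.163), stimulated replicate 1 (0.0718) or stimulated replicate 2 (0.0923).

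EGR3, an EGR1-related factor known from T cell tolerance, was the least often detected of the 6 genes. Its level was at or above log2(10) in 6 libraries, and all 6 carried the replicate number 2. WT vehicle replicates were at 0.66, 1.31 and 0.56 (6 h), 0.94, 3.71 and 0.65 (12 h) and 1.31, 1.60 and 1.39 (24 h). WT stimulated replicates were at 2.79, 4.51 and 1.9, then 1.10, 5.99 and 1.22, then 2.36, 5.97 and 2.36. The treatments separated at 6 and 24 h in WT cells. KO vehicle replicates were at 2.47, 1.14 and 0.92, then 0.74, 2.67 and 0.18, then 0.88, 0.88 and 0.44. KO stimulated replicates were at 1.15, 2.09 and 3.11, then 0.70, 5.85 and 0.67, then 1.96, 5.00 and 2.36. The KO groups were apart at 24 h and overlapped before. None of the 6 EGR3 changes was called: they were 2.23, 1.00 and 2.13 in WT cells and 0.61, 1.21 and 2.37 in KO cells, with an SE of 1.25 and limma adjusted p from 0.138 to 0.738. The 12 h changes took the other sign without stimulated replicate 2 of that group, at -0.61 in WT and -0.51 in KO cells. In a fit of only the libraries compared, WT 6 h (adjusted p = 0.0441) and KO 24 h (0.0445) were called.

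**Figure D2:**
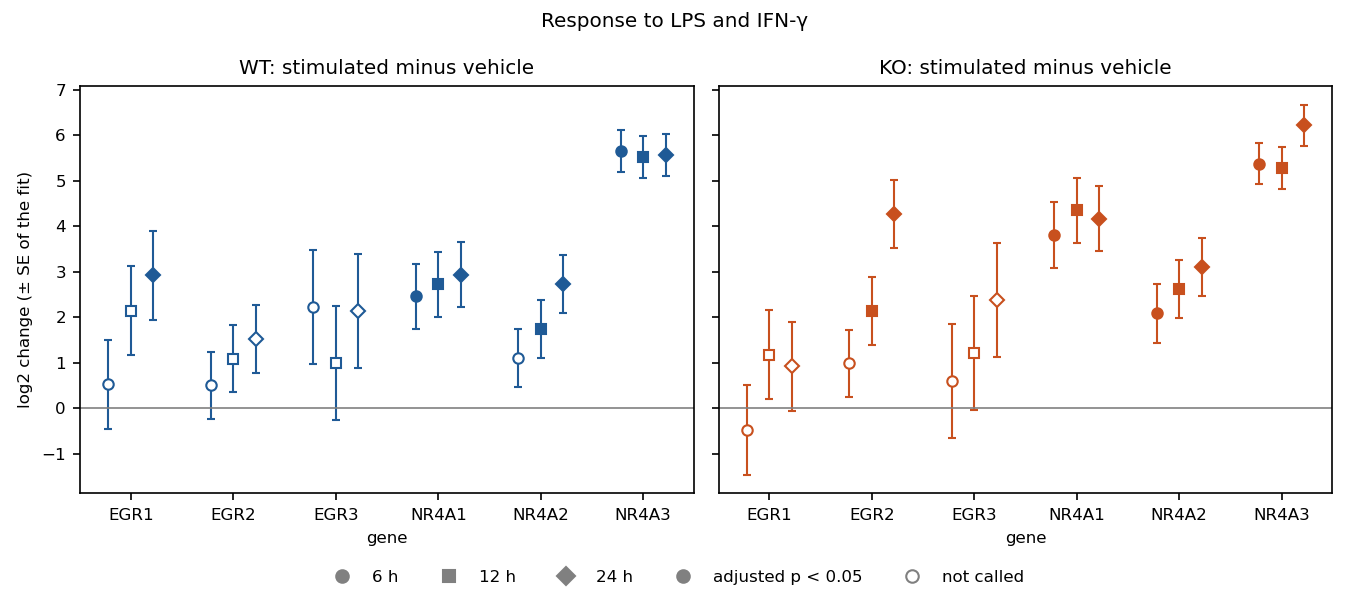
Fitted log2 change, stimulated minus vehicle (y axis, bars are ± SE), for each gene (x axis) at 6 h (circle), 12 h (square) and 24 h (diamond), with WT on the left and KO on the right. Filled markers have an adjusted p below 0.05: NR4A1 and NR4A3 are filled at all times in both genotypes, EGR3 at none.

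Replicate 2 of the stimulated groups at 12 and 24 h held the highest level of 5 of the 6 genes in all 4 groups. Against the mean of replicates 1 and 3, EGR3 was higher by 4.83 and 3.61 log2 units in WT cells at 12 and 24 h and by 5.16 and 2.84 in KO cells. For EGR1 the excess was 1.95 and 2.31 in the WT groups, against 3.34 and 4.28 in the KO groups. NR4A1 was higher by 1.56 to 3.18, NR4A2 by 0.46 to 2.41 and EGR2 by 0.64 to 1.81. NR4A3 did not share this: its replicate 2 lay at -1.27 and 0.46 relative to the others in the WT groups, and at 0.52 and -1.14 in the KO groups. Over all 12 groups, replicate 2 was highest in 9 for EGR1, 10 for EGR2, 9 for EGR3 and 8 for NR4A1. It was highest in 5 of the 12 for NR4A2 and 6 for NR4A3. For the EGR genes and NR4A1 a high replicate 2 was thus not confined to the late stimulated groups. The mean difference over the 4 groups was 4.11 for EGR3, above that of 99.99% of the 21232 genes, and 2.97 for EGR1, above 99.90%. The 4 libraries were picked after the levels of these genes were seen, and EGR3 passed the filter only through libraries numbered 2. These ranks, and the shares that follow, therefore describe the libraries and are not a test. Replicate 2 was highest in all 4 groups for 6.56% of all genes and for 7 of 32 other immediate early genes. It was also highest in all 4 groups for 6 of 16 genes of the ERK cascade, 4 of 10 ERK feedback inhibitors, 2 of 3 EGR corepressors and paralog, 4 of 14 genes described as EGR1 targets, 2 of 8 protein kinase C isoforms and 2 of 16 genes of CREB and cAMP signalling. It was so for 0 of 6 genes of SRF and its cofactors and for 0 of 2 NR4A dimer partners. Among cell markers this held for 4 of 10 myeloid and 0 of 10 other markers. EGR4, the remaining EGR paralog, was higher in replicate 2 by 2.73 on average, the ERK feedback inhibitor SPRY1 by 3.29, and the glucocorticoid- and serum-induced kinase SGK1 by 2.18. These 3 genes were singled out after their values were seen. The labels do not say what a shared replicate number stands for, and neither its part nor that of the markers in the levels was tested.

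Without these 4 libraries, NR4A1, NR4A2 and NR4A3 were still called in both genotypes at 12 and 24 h. Their changes at 24 h were then 2.21, 1.92 and 5.41 in WT cells and 3.64, 2.69 and 6.59 in KO cells (limma, highest adjusted p = 0.0104). EGR1 stayed called in WT cells at 24 h (2.15, SE 0.73, adjusted p = 0.019) and had a change of -0.50 in KO cells (0.653). Without WT stimulated 24 h replicate 2 alone, the same change of 2.15 had an SE of 1.07 and was not called (limma adjusted p = 0.104). Likewise NR4A2 in WT cells at 12 h (1.58) had an SE of 0.59 (0.0372) without the 4, and 0.72 (0.0899) without stimulated replicate 2 alone. The 4 libraries were picked after their levels were seen, and these 2 calls rest on the smaller shared spread without them. EGR2 stayed called in KO cells at 24 h (3.77, adjusted p = 0.000839) and was no longer called at 12 h (1.92, adjusted p = 0.0803). The EGR3 changes at 12 and 24 h were then -0.61 and 0.93 in WT cells and -0.51 and 1.43 in KO cells, none called (adjusted p from 0.198 to 0.702).

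**Figure D3:**
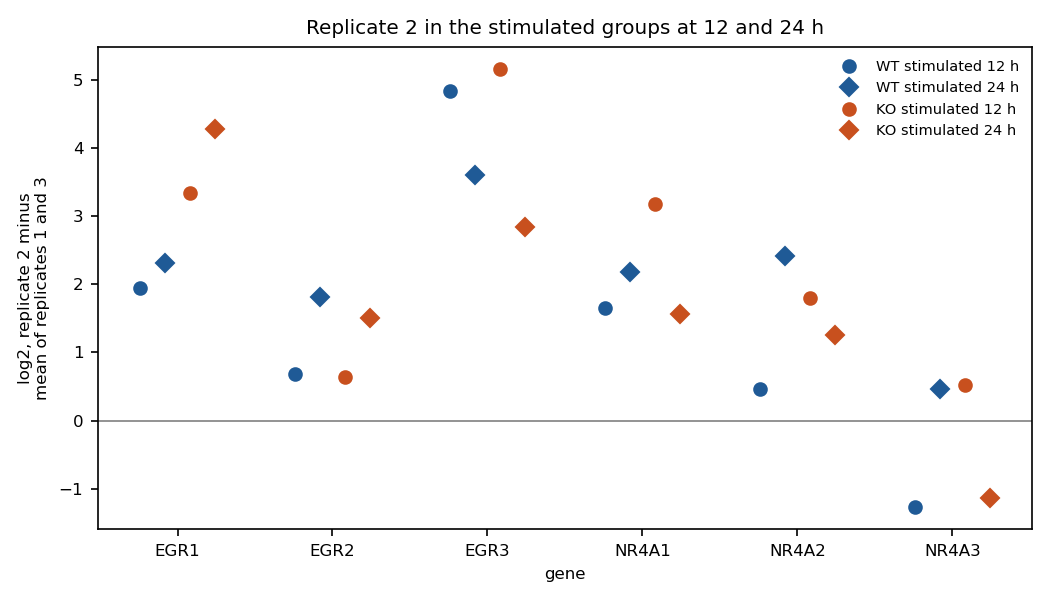
Log2 level of replicate 2 minus the mean of replicates 1 and 3 (y axis) for each gene (x axis) in the 4 stimulated groups at 12 h (circle) and 24 h (diamond), WT in blue and KO in orange. All points of EGR1, EGR2, EGR3, NR4A1 and NR4A2 lie above 0, and those of NR4A3 lie on both sides.

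The comparison of cells labelled KO with WT cells asks whether these genes differ where IRG1 has been targeted. ACOD1 RNA remained in the stimulated KO groups (means 8.48 to 8.90), and itaconate itself was not measured in the data used here. By limma 0 of the 6 genes was called in vehicle cells at 6, 12 or 24 h, against 8.19%, 5.24% and 3.98% of all genes, and 1, 0 and 0 had an unadjusted p below 0.05. In stimulated cells 0 was called at any of the 3 times, against 8.71%, 3.45% and 5.87% of all genes, and 1 had an unadjusted p below 0.05 at each time. The intervals are wide, so this does not show that the genotypes act alike.

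NR4A3 leaned lower in KO cells. In vehicle cells its KO libraries were all below the WT libraries at 6 and 24 h, and the difference was -0.999, -0.72 and -0.84 at 6, 12 and 24 h (limma adjusted p = 0.202, 0.508 and 0.427). All these vehicle levels lie under log2(10), and with a pseudocount of 5 the differences were -0.46, -0.26 and -0.23. In stimulated cells the libraries were apart at 6 h, where the difference was -1.28 with a 95% interval of -2.21 to -0.34 (adjusted p = 0.0791), and it was -0.95 at 12 h and -0.18 at 24 h. The 6 h difference was called with a pseudocount of 5 (adjusted p = 0.0363) and without KO stimulated replicate 1 (-1.66, adjusted p = 0.0373). NR4A1 was likewise below WT without overlap in vehicle cells at 6 and 24 h, with differences of -1.44 (interval -2.90 to 0.02) and -0.64 (interval -2.10 to 0.83), at levels under log2(10) in all but 1 of those libraries, and of -0.66 and -0.17 with a pseudocount of 5. Without the 12 libraries numbered 2 the NR4A1 difference at 6 h was called (-2.10, adjusted p = 0.0153), and so was that of NR4A3 in stimulated cells at 12 h (-1.55, adjusted p = 0.0265).

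EGR2 had the highest difference of the 6 genes in stimulated cells at 24 h. The difference was 1.69 with an interval of 0.17 to 3.21 (limma adjusted p = 0.18), and the libraries overlapped, with 1 WT library at 7.15 above 1 KO library at 6.91. With the replicate number as a block it was called (adjusted p = 0.0362), and without the 12 libraries numbered 2 it was called as well (1.79, adjusted p = 0.0491). EGR1 differed in stimulated cells by -1.26, -1.02 and -1.23 at 6, 12 and 24 h, with intervals between -3.27 and 0.98. Single libraries moved these values without a call: to -2.13 and -0.66 at 6 h without KO stimulated replicate 1 or 3, to -2.14 and -0.37 at 12 h without KO stimulated replicate 2 or 3, and to -2.66 and -0.37 at 24 h without KO stimulated replicate 2 or 3. EGR3 and NR4A2 differed by -0.95 to 0.71 over both treatments and all times, and no interval excluded 0. In vehicle cells at 24 h the KO libraries of EGR3 (0.88, 0.88 and 0.44) also lay below those of WT (1.31, 1.60 and 1.39). All of these levels were under log2(10). In vehicle cells EGR1 differed by -0.26, -0.06 and 0.76 and EGR2 by 0.45, -0.17 and -1.05 at the 3 times, again with 0 inside every interval. The summed log2 level of the myeloid markers lay between 13.52 and 15.29 in WT and between 12.71 and 13.85 in KO libraries, and that of the other cell types between 7.99 and 9.47 in WT and between 7.21 and 8.29 in KO libraries. COL1A1 was lower in stimulated KO than stimulated WT cells (differences of -3.23, -2.93 and -2.46, limma, highest adjusted p = 0.00101), as was the myeloid marker LYZ, lysozyme (-2.65, -3.11 and -2.78, highest adjusted p = 0.00194). These differences exceed in size that of any of the 6 genes in stimulated cells at each time. CD79A, another of the other markers, was higher in stimulated KO cells at 6 h (2.34, limma adjusted p = 0.00388). Of the 10 other markers, 1, 0 and 0 were called higher and 1, 1 and 1 lower in stimulated KO cells. Of the 10 myeloid markers, 0 were called higher and 3, 2 and 1 lower. The share of all genes called in either direction was 8.71%, 3.45% and 5.87%. The part of the markers in the differences was not tested.

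**Figure D4:**
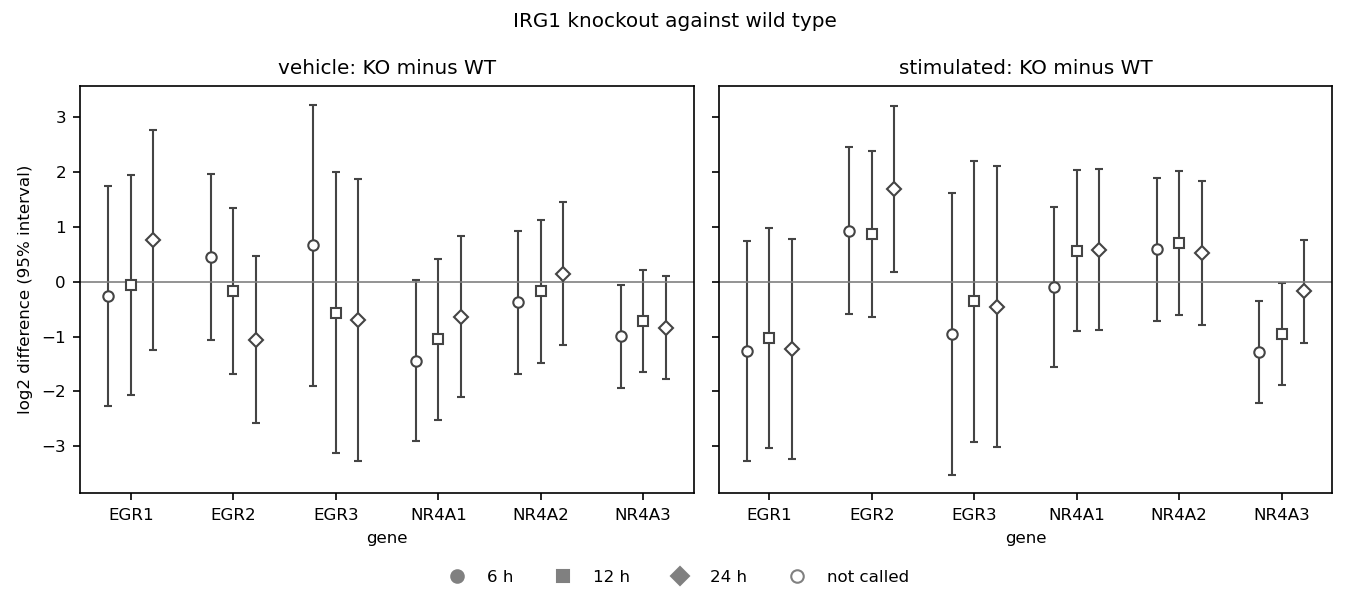
Fitted log2 difference, KO minus WT (y axis, bars are 95% intervals), for each gene (x axis) at 6 h (circle), 12 h (square) and 24 h (diamond), with vehicle on the left and stimulated on the right. No difference was called; the intervals of NR4A3 at 6 h in both treatments and at 12 h in stimulated cells, and of EGR2 at 24 h in stimulated cells, exclude 0 before adjustment.

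The response itself was compared between genotypes as the difference of the 2 stimulation changes. By limma 0 of the 6 genes was called at 6, 12 or 24 h, against 0.452%, 0.160% and 0.433% of all genes, and 0, 0 and 1 had an unadjusted p below 0.05. The largest was EGR2 at 24 h, whose change with stimulation was larger in KO cells by 2.75 (interval 0.60 to 4.89, adjusted p = 0.262), and it was called without the 12 libraries numbered 2 (2.96, adjusted p = 0.0489). NR4A1 was larger in KO cells by 1.35, 1.62 and 1.22 at the 3 times, with adjusted p of 0.877, 0.876 and 0.698. With a pseudocount of 5 the NR4A1 value was 0.587 at 6 h and 0.615 at 24 h, and the lowest at 12 h over the alternatives was 0.558.

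From 6 to 24 h, 2 of the 6 genes were called in stimulated cells of each genotype, against 22.8% of all genes in WT and 27.5% in KO cells, so the count is near the background. EGR1 rose by 2.67 in stimulated WT cells (limma adjusted p = 0.049) and by 2.70 in stimulated KO cells (0.0404). NR4A3 fell by 1.37 in stimulated WT cells (0.0298) and differed by -0.27 in stimulated KO cells (0.701), and EGR2 rose by 1.98 in stimulated KO cells (0.0469). All 4 calls were lost in a fit of only the libraries compared (adjusted p = 0.103, 0.227, 0.062 and 0.0801 in the order given). The EGR1 call in WT cells was lost when any one of the 6 libraries except WT stimulated 24 h replicate 3 was left out, with an adjusted p up to 0.214 without 24 h replicate 2. In KO cells the EGR1 change was 1.27 without 24 h replicate 2 (0.356), 2.43 without 6 h replicate 2 (0.123) and 2.10 without 6 h replicate 3 (0.155). The NR4A3 call was lost without WT stimulated 6 h replicate 1 (0.136), 6 h replicate 2 (0.0551) or 24 h replicate 3 (0.129). The EGR2 call was lost without any of KO stimulated 6 h replicate 2 (0.194), 6 h replicate 3 (0.0643), 24 h replicate 1 (0.0726) and 24 h replicate 2 (0.208), and without all libraries numbered 2 its change was 1.04 (0.24).

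In vehicle cells 0 of the 6 genes was called by limma from 6 to 24 h, against 0.0895% of all genes in WT and 0.834% in KO cells, and NR4A2 and NR4A3 had an unadjusted p below 0.05 in both genotypes. NR4A2 differed by -1.99 in WT and -1.47 in KO vehicle cells, and NR4A3 by -1.27 and -1.11. From 6 to 12 h 0 was called in the WT vehicle, WT stimulated, KO vehicle and KO stimulated groups, against 0%, 3.80%, 0.00471% and 9.60% of all genes, and 1, 0, 0 and 1 had an unadjusted p below 0.05. The stimulation change at 24 h was also set against that at 6 h. By limma 0 of the 6 genes was called, against 9.64% of all genes in WT and 6.75% in KO cells, and 0 and 1 had an unadjusted p below 0.05. That 1 was EGR2 in KO cells, with a difference of 3.29 (adjusted p = 0.0548), which was called without KO vehicle 24 h replicate 2 (3.85, 0.039) or KO vehicle 6 h replicate 3 (3.76, 0.0483), and with a pseudocount of 5 (2.85, 0.0457).

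Ordered by mean log2 level over the 12 groups, neighbouring groups mostly overlapped. For EGR1, EGR3, NR4A1 and NR4A2 all 11 neighbouring pairs overlapped, for EGR2 10 did and for NR4A3 8 did. How often neighbouring or compared groups overlap over all genes was not computed. The overlaps given here and above therefore only describe the 6 genes. NR4A1 and NR4A3 were highest in WT stimulated 6 h (means 5.09 and 8.22), NR4A2 in KO stimulated 6 h (6.50), EGR2 in KO stimulated 24 h (7.63), and EGR1 and EGR3 in WT stimulated 24 h (7.74 and 3.56). The lowest group was a KO group for 5 of the genes, and WT vehicle 24 h for NR4A2 (2.80).

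The 3 NR4A genes followed each other over the 12 group means, with Pearson r of 0.97 for NR4A1 and NR4A3, 0.95 for NR4A1 and NR4A2 and 0.91 for NR4A2 and NR4A3. The group means share libraries and treatment, so these are descriptions. The EGR genes were less alike, at 0.50 for EGR1 and EGR2, 0.66 for EGR1 and EGR3 and 0.77 for EGR2 and EGR3, and the lowest of the 15 values was 0.24 for EGR1 and NR4A2. Among 4268 genes whose group means had an SD of at least 1, the closest to NR4A3 were ETV3L (r = 0.997), MSC (0.996) and ARHGAP5 (0.995), and the closest to NR4A1 were BCL3 (0.981), TFPI2 (0.98) and ETV3L (0.978). NR4A2 was closest to C9orf152 (0.961), CEMIP (0.958) and DYNLT4 (0.949). EGR1 was closest to TRAF5 (0.954), KCNE1 (0.949) and VIL1 (0.944), and EGR3 to CYP7A1 (0.953), KCNE5 (0.952) and LINC02992 (0.951). EGR2 was closest to HLA-DRB5 (0.939), SYNGR3 (0.938) and CD74 (0.935), of which HLA-DRB5 and CD74 belong to antigen presentation by MHC class II. HLA-DRB5 shares sequence with other HLA-DRB genes, so reads could be split among them.

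The partners of the 6 proteins moved in both directions. NAB1, a corepressor of EGR proteins, was called higher in KO cells at all 3 times (1.07, 0.86 and 1.28), and in WT cells at 6 and 24 h (1.03 and 0.82). NAB2, the other corepressor, was called in neither genotype with stimulation, and was higher in KO than WT stimulated cells at 6 h by 1.23 (limma adjusted p = 0.0381). EGR4 was called higher in WT cells at 24 h (3.24, adjusted p = 0.017). RXRA, the dimer partner of NR4A1 and NR4A2, fell in WT cells by 2.53, 2.38 and 1.77 and in KO cells by 2.05, 1.97 and 2.16, while RXRB changed by at most 0.26 in size and was not called.

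Upstream of the EGR genes, SRF was not called with stimulation in either genotype. Of 6 genes of SRF and its cofactors, ELK3 fell in WT cells by 1.95, 2.16 and 2.68 and in KO cells by 1.72, 2.00 and 2.98. ELK1, a ternary complex factor that ERK phosphorylates, was lower in KO than WT cells in all 6 comparisons, with differences of -2.87, -2.41 and -2.10 in vehicle and -4.10, -3.08 and -2.16 in stimulated cells (limma, highest adjusted p = 6.42e-06). It rose with stimulation in WT cells at 6 and 12 h (1.58 and 1.23) and had changes of 0.35, 0.56 and 0.22 in KO cells, none called. In the ERK cascade 2, 1 and 2 of 16 genes rose and 3, 2 and 1 fell in WT cells at 6, 12 and 24 h, and 2, 1 and 2 rose and 3, 3 and 1 fell in KO cells. Of all genes, 36.0%, 38.5% and 46.4% were called in either direction in WT cells and 38.7%, 35.0% and 38.9% in KO cells, so the share called in this list was lower at each time. MAP3K8, the kinase that links LPS receptors to ERK, rose in WT cells by 3.60, 2.32 and 1.9 and in KO cells by 3.91, 2.91 and 2.88. The median change of the list was -0.22, -0.16 and 0.14 in WT cells and -0.05, -0.20 and 0.10 in KO cells.

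Among 8 protein kinase C isoforms, several of which bind PMA, 0 rose and 1, 2 and 2 fell in WT cells, where PRKCZ fell by 1.76, 1.46 and 1.23, and 3, 1 and 1 rose and 2, 2 and 1 fell in KO cells, where PRKCD rose by 0.70, 0.57 and 0.81. In WT cells the share of isoforms called in either direction was smaller than that of all genes at each time. In KO cells it was larger than that of all genes at 6 h (38.7%). It was near that share at 12 h (35.0%) and smaller at 24 h (38.9%). Among 10 ERK feedback inhibitors, 3, 1 and 4 rose in WT cells and 2, 1 and 1 in KO cells, and 2 fell at each time in each genotype. These shares of calls in either direction lie on both sides of those of all genes given for the ERK cascade. DUSP5, a nuclear ERK phosphatase, rose in WT cells by 6.42, 7.06 and 7.99 and in KO cells by 5.21, 6.07 and 7.24, while DUSP7 fell by 2.38, 2.29 and 2.15 in WT cells. Of 16 genes of CREB and cAMP signalling, 4, 4 and 6 rose and 2, 3 and 2 fell in WT cells, and 5, 4 and 4 rose and 5, 3 and 2 fell in KO cells, at each time except 6 h in KO cells a share near that of all genes. Those that rose include PDE4B, which degrades cAMP (4.07, 3.71 and 4.29 in WT), SIK1, a kinase that restrains CREB coactivators (3.27, 2.89 and 3.14), and CREM (1.57, 1.87 and 2.46). CREM was lower in KO than WT vehicle cells (differences of -1.51, -1.69 and -1.44).

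Of 32 other immediate early genes, 19, 23 and 21 were called higher and 1 lower in WT cells, and 19, 20 and 22 higher and 3 lower in KO cells, against 15.1% to 20.2% of all genes called higher over the 6 comparisons. Their median changes were 1.38, 1.86 and 2.19 in WT and 1.73, 1.61 and 1.96 in KO cells. ATF3 rose by 4.13, 5.03 and 6.16 in WT and MAFF by 4.00, 4.88 and 5.21. FOS did the opposite: it fell in WT cells at 6 and 12 h (changes of -2.23 and -1.62) and in KO cells at all 3 times (-2.61, -2.37 and -1.85). CCN2 was higher by 5.72, 4.86 and 4.46 and CCN1 by 3.76, 2.70 and 2.41 in KO than in WT vehicle cells. IER3 was lower there, with differences of -1.67, -1.65 and -2.22. Of the 32 genes, 3, 2 and 2 were called higher and 2, 2 and 2 lower in KO vehicle cells. Of all genes, 8.19%, 5.24% and 3.98% were called in either direction.

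Of 14 genes described as EGR1 targets, 7, 7 and 8 rose in WT and 6, 6 and 6 in KO cells, where 1 fell at 12 h, again above the share of all genes called higher, while EGR1 itself was called in 1 of the 6 comparisons. ICAM1, a leukocyte adhesion molecule, rose in WT cells by 4.48, 4.38 and 4.98 and in KO cells by 6.20, 5.82 and 7.05, and CD44 by 4.70, 4.12 and 3.13 in WT cells. PDGFB, a growth factor chain, rose by 5.25, 5.85 and 3.59 in WT cells and was lower in stimulated KO than WT cells (differences of -2.08, -4.61 and -2.84). Many of these genes also respond to other factors, and the part of EGR1 was not tested.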

How the data were processed

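RNA of 36 THP-1 libraries was sequenced after ribosomal RNA depletion, per the labels' protocols. Cutadapt 1.9.1, GSNAP and build GRCh37.p5 are named in the submitters' processing notes. The authors deposited 1 table of log2 values per Entrez gene. Its normalization and any offset are not given in the sources used here. Library medians lay between 5.469 and 5.475.

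Of 21599 genes, 20609 matched a symbol. Genes at log2(10) or more in at least 3 libraries were kept (21232). limma 3.58.1 (R 4.3.3) fitted 12 group means to the log2 values, with a mean-variance trend and Benjamini-Hochberg adjustment, for 25 comparisons. The fit was tested on simulated data. Same-numbered libraries were checked as pairs through their deviations from group means: in 16 of 20 comparisons every pair correlated above 0.1 (range -0.15 to 0.589). Only then is a blocked value given beside a result. Alternatives changed the filter, pseudocount, normalization, variance model, samples fitted, call rule and replicates. Promoters come from RefSeq (GRCh38.p14).

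The genes named are the 6 members, ACOD1, up to 4 genes of each of 11 lists (3 for KO against WT) that were called at all 3 times in 1 direction with the largest mean change, and the 3 genes most alike in group means. ELK1, SRF, NAB2, EGR4, RXRB, FOS, SPRY1, SGK1 and PECAM1 are also described outside that rule, after their values were seen. Members and lists were chosen with earlier results of these data known.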

Additional observations from a re-analysis of the deposited data

How the results depend on the processing

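Of 2364 values of the 6 genes recomputed under the alternatives, 2298 kept their side of the threshold, 44 lost a call, 22 gained one, and no called value changed direction. Another 105 values changed sign without being called in either fit. With a pseudocount of 5, 1 gene was called for KO against WT in stimulated cells at 6 h, 1 for the KO stimulated groups from 6 to 24 h and 1 for the change of the KO response. Without the mean-variance trend 1 was called for the stimulated groups from 6 to 24 h in each genotype, and in fits of only the libraries compared 0. With the replicate block 1 gene, EGR2, was called for KO against WT in stimulated cells at 24 h, for the difference between the genotypes' responses (the interaction) at 24 h (2.75, adjusted p = 0.0495) and for the change of the KO response (3.29, adjusted p = 0.00453). The last 2 rest on groups whose numbers did not correlate in every pair, as does EGR3 in KO cells at 24 h (2.37, adjusted p = 0.0375). The block ended no call.

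Leaving out 1 library gave 0 to 1 calls for the stimulated WT groups from 6 to 24 h, 0 to 1 for the KO groups, 1 for KO against WT stimulated at 6 h and 1 for the KO response, where the other such fits gave the values of the report. Settings chosen after seeing the data were the 4 libraries of replicate 2 left out, which gave 0 calls for the KO stimulated groups from 6 to 24 h, and all 12 libraries numbered 2 left out, which gave 0 there and 1 each for KO against WT in vehicle at 6 h, in stimulated cells at 12 and 24 h, and for the interaction at 24 h. Also called then were EGR3 in WT cells at 6 h (1.74, adjusted p = 0.0424) and EGR1 in WT cells at 12 h (2.11, 0.0491), and NR4A2 in WT cells at 12 h was lost (0.0896). NR4A1 fell from 6 to 24 h in stimulated WT cells by 1.64 (0.0319) without the 4 libraries and by 1.57 (0.0379) without the 12. A stricter filter at the median level (10616 genes) removed all 6 genes, so it gave no value. Low levels and unknown depth limit EGR3 and the vehicle levels of NR4A1 and NR4A3.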
